A study of Mus musculus with 6 samples.

Results

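The Hox cluster genes were examined in neural cultures of mouse embryonic stem cells given valproate or its solvent. A member was any gene named Hoxa, Hoxb, Hoxc or Hoxd with a number that had a probe set assigned to it alone in GEO's platform annotation. The rule gave 37 members among 19938 genes with a probe set of their own: 10 in the Hoxa cluster and 9 each in Hoxb, Hoxc and Hoxd. Every member had a single such probe set. Hoxb8, which shares a probe set with Hoxb7, was not analysed here as a single gene.

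All cultures were of W4, a mouse embryonic stem cell line, kept for up to 16 days on coated plates in a neural medium with B27, N2 and bFGF. The VPA group had 300 uM valproate (VPA) during those 16 days, an antiepileptic drug that inhibits histone deacetylases, at a concentration the labels call sub-toxic. The PBS group had phosphate-buffered saline, the solvent control. Each group had 3 arrays, described as biological replicates of 1 cell line, and the comparison asks which transcripts a developmental neurotoxicant alters while neurons form. Values are log2 signals normalized by the authors, each change is VPA minus PBS with its standard error (SE), and n = 3 arrays per group throughout.

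Hox genes encode homeodomain transcription factors that give cells their position along the head-to-tail axis. They lie in clusters Hoxa to Hoxd on different chromosomes, and genes at matching places in the clusters form numbered paralogue groups. Low-numbered groups are active in the hindbrain, middle groups in the cervical and thoracic spinal cord, and high-numbered groups in the lumbar and sacral cord, tail, limbs and urogenital tract. In the embryo, retinoic acid, FGF and Wnt signals open the clusters from the low-numbered end, while Polycomb proteins keep silent parts closed. The forebrain and midbrain express almost no Hox genes.

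With VPA, 26 of 37 Hox genes rose and 0 fell, at a Benjamini-Hochberg adjusted p under 0.05 over all 19938 genes in limma. Over all genes, 29.2% passed in either direction, 13.6% rose and 15.7% fell. At an unadjusted p under 0.05, 27 Hox genes were higher and 0 lower. The median change of the 37 genes was 0.77, against 0.0013 over all genes. Of the Hox genes, 15 rose by at least 2-fold, which 1.16% of all genes did. In 27 of 37, the 3 VPA arrays all lay above the 3 PBS arrays, as they did for 20.2% of all genes. Without VPA replicate 1, which stood apart as described below, 27 Hox genes rose and 0 fell, while the share of all genes that rose went up to 19.8%.

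**Figure D1:**
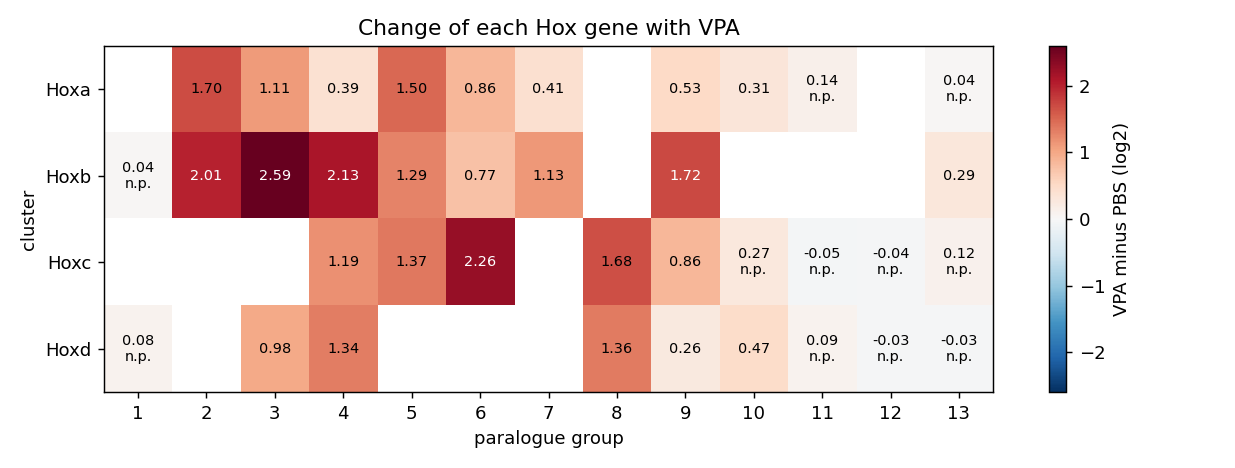
Change of each Hox gene, VPA minus PBS on the log2 scale (colour and printed value), by cluster (rows) and paralogue group (columns); n.p. marks genes not past the threshold, and empty cells have no value here. Every measured member of groups 2 to 9 rose, by 0.26 to 2.59, whereas both measured members of group 1 and all of groups 11 and 12 did not pass.

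The members that rose followed the numbering of the paralogue groups. All 23 measured genes of groups 2 to 9 rose (median change 1.29), and 15 of them did so by at least 2-fold. Of the 14 measured genes of groups 1 and 10 to 13, 3 rose (median change 0.09). This split was drawn with the changes known, and its edges follow the calls, so its counts only describe where the rise lay. By bands, the median was 1.19 over the 11 genes of groups 1 to 4, 1.32 over the 10 genes of groups 5 to 8 and 0.20 over the 16 genes of groups 9 to 13. Across all 37 members, Spearman's rho between group number and change was -0.575, and across the 35 members of groups 2 to 13, without the group 1 genes that did not pass, it was -0.78. Both are descriptions over genes of the same arrays, which are not independent. Of the 16 genes of groups 9 to 13, 8 had means below 6.155 in both groups. This background gauge is the 95th percentile of the mean levels of 1027 olfactory receptor genes, since few of those are active in cultured cells, and lower levels were not told apart from background. Of the 37 genes, 22 had a PBS mean below the gauge and 9 had both means below it. For the former the difference is given as measured, and its true size is undefined.

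VPA replicate 1 stood apart from the other VPA arrays. The median absolute difference between arrays over all genes was 0.06 to 0.07 among PBS arrays and 0.07 between VPA replicates 2 and 3, but 0.12 and 0.13 between VPA replicate 1 and these. Array medians lay between 6.99 and 7.03. The files used here give no scan date or other batch.

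Paralogue group 1, the first to be activated in the embryo, did not pass. Hoxb1, which specifies the fourth rhombomere of the hindbrain, read 7.17, 7.20 and 7.16 with PBS and 7.08, 7.25 and 7.31 with VPA, a change of 0.04 (95% interval -0.12 to 0.20). Hoxd1 read 5.53, 5.57 and 5.85 with PBS and 5.77, 5.61 and 5.81 with VPA, below the background gauge in both groups. The groups overlapped for both genes. The upper end of the interval for Hoxb1 lies under the change of Hoxb2, the next gene of the cluster (2.01).

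Groups 2 and 3 pattern the hindbrain and the pharyngeal arches, and their 5 measured genes all rose. Hoxb3 had the largest change among Hox genes with a probe set of their own. It read 7.60, 8.01 and 8.08 with PBS and 10.79, 10.54 and 10.13 with VPA, a rise of 2.59 (SE 0.17, adjusted p = 1.36e-05). Hoxb2, a regulator of rhombomere and facial motor neuron identity, read 7.33, 7.79 and 7.55 with PBS and 9.99, 9.29 and 9.41 with VPA, a rise of 2.01 (SE 0.18, adjusted p = 6.40e-05). For neither gene did the groups overlap, and every VPA array was well clear of the highest PBS array. Hoxa2, the selector gene of the second pharyngeal arch, was already well above the gauge with PBS. It read 8.14, 8.25 and 8.08 with PBS and 10.03, 9.80 and 9.72 with VPA, a rise of 1.696 (SE 0.09, adjusted p = 3.46e-06).

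The other members of group 3 act in the caudal hindbrain and in the third pharyngeal arch. Hoxa3 read 5.81, 5.70 and 5.82 with PBS and 7.31, 6.74 and 6.62 with VPA, a measured difference of 1.11 (SE 0.15, adjusted p = 0.00075) from a PBS mean below the gauge. Hoxd3 read 6.81, 6.79 and 6.69 with PBS and 8.16, 7.70 and 7.36 with VPA, a rise of 0.98 (SE 0.17, adjusted p = 0.00238). In both, VPA replicate 1 was the highest array, and without it the changes were 0.90 and 0.77.

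Group 4 marks the border of hindbrain and spinal cord, and its 4 members rose by unequal amounts. Hoxb4 read 6.27, 6.34 and 6.34 with PBS and 8.80, 8.19 and 8.35 with VPA, a rise of 2.13 (SE 0.13, adjusted p = 1.03e-05). Hoxd4 read 5.92, 5.73 and 5.73 with PBS and 7.69, 6.79 and 6.92 with VPA, a measured difference of 1.34 (SE 0.20, adjusted p = 0.00112). Hoxc4 read 5.11, 5.01 and 5.47 with PBS and 6.58, 6.44 and 6.14 with VPA, where VPA replicate 3 lay just under the gauge, with a measured difference of 1.19 (SE 0.14, adjusted p = 0.000278). Hoxa4 rose least, by 0.39 (SE 0.08, 95% interval 0.21 to 0.56), from 7.14, 7.21 and 6.98 to 7.54, 7.56 and 7.40. The 95% interval for Hoxb4, 1.83 to 2.44, lies apart from that of Hoxa4. Probe sets can differ in how strongly they respond, and the difference between genes was not tested.

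In groups 5 to 8, which set cervical, forelimb-level and thoracic identity, all 10 measured genes rose. Hoxc6, a determinant of forelimb-level motor neurons, read 5.94, 6.15 and 6.05 with PBS and 8.79, 8.08 and 8.05 with VPA. The measured difference was 2.26 (SE 0.18, adjusted p = 3.23e-05), from a PBS mean below the gauge to a VPA level well above it. Hoxc8, which marks the caudal forelimb level of the cord, read 5.97, 6.51 and 6.39 with PBS and 8.02, 7.89 and 7.99 with VPA, a rise of 1.68 (SE 0.12, adjusted p = 2.31e-05). Its VPA arrays lay closer together (SD 0.07) than its PBS arrays (SD 0.28). Hoxd8 read 5.96, 6.02 and 6.24 with PBS and 7.70, 7.33 and 7.26 with VPA, a measured difference of 1.36 (SE 0.12, adjusted p = 6.21e-05).

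Hoxa5, which is needed for phrenic motor neurons and the lung, had the widest spread between VPA arrays. It read 5.56, 5.48 and 5.49 with PBS and 7.63, 6.77 and 6.63 with VPA, a measured difference of 1.501 (SE 0.22, adjusted p = 0.000941). Without VPA replicate 1 the difference was 1.19. Its paralogue Hoxc5 read 5.74, 5.61 and 5.76 with PBS and 7.53, 6.99 and 6.69 with VPA, a measured difference of 1.37 (SE 0.17, adjusted p = 0.000488). The third member, Hoxb5, rose by 1.29 (SE 0.13), from 6.12, 6.33 and 6.45 to 7.89, 7.52 and 7.36. The 3 genes of group 5 had measured changes of 1.29 to 1.501, and the 3 of group 6 of 0.77 to 2.26. Hoxa5, Hoxc5, Hoxb6 and Hoxc6 had PBS means below the gauge, so the true width of these ranges is undefined. In group 6, Hoxa6 read 6.29, 6.42 and 6.53 with PBS and 7.67, 7.15 and 6.996 with VPA, a rise of 0.86 (SE 0.15, adjusted p = 0.00311). Hoxb6 had a measured difference of 0.77 (SE 0.10, adjusted p = 0.000492), its PBS mean of 6.02 being under the gauge. In group 7, Hoxb7 rose by 1.13 (SE 0.10), to a VPA mean of 8.12, and Hoxa7 by 0.41 (SE 0.06), to 6.84.

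**Figure D2:**
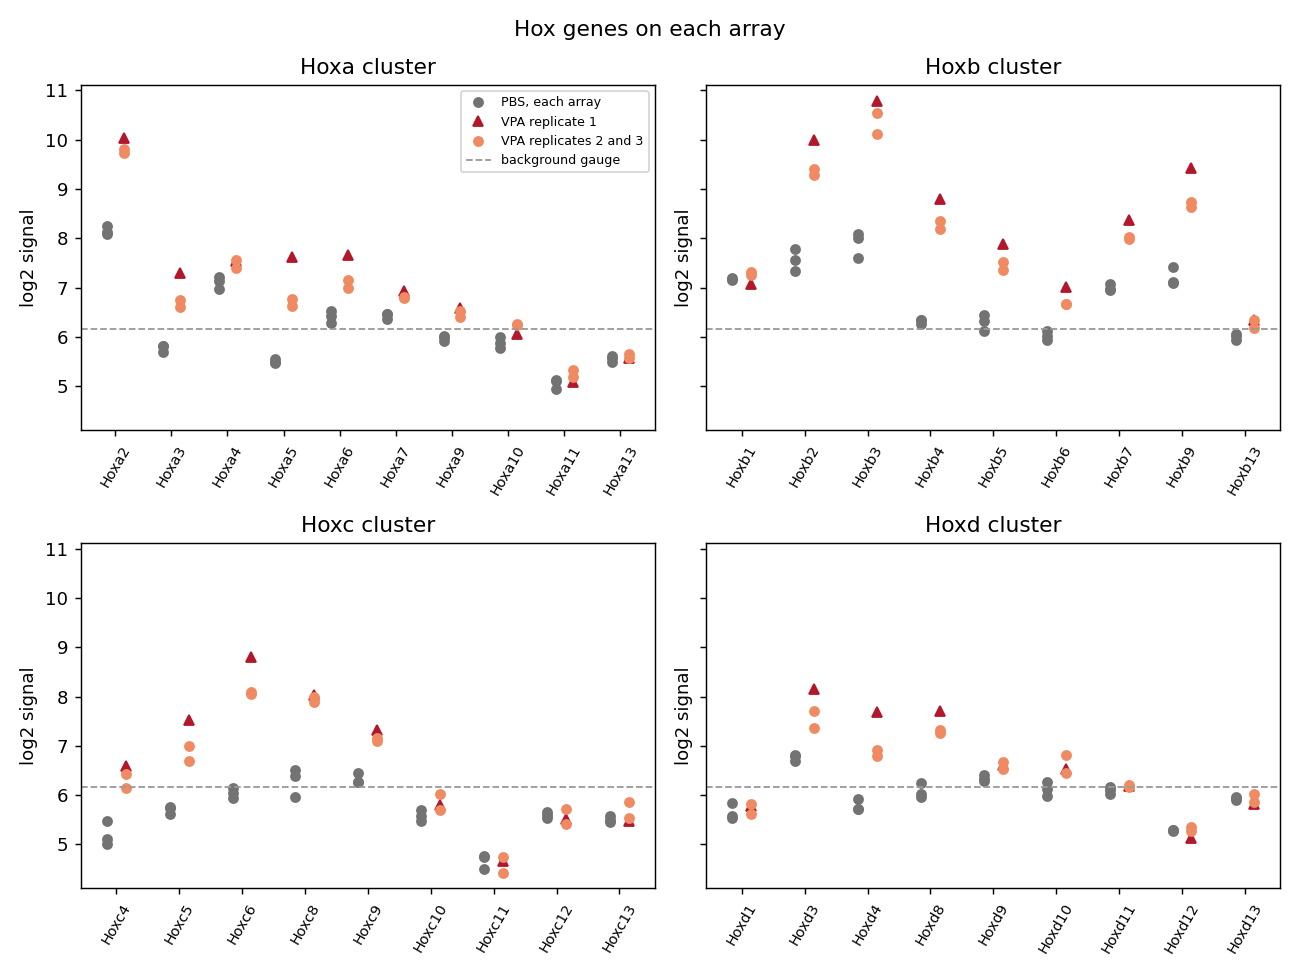
The log2 signal of every Hox gene (vertical axis) on each of the 6 arrays, by cluster and in order of paralogue group; the dashed line is the background gauge of 6.155. Levels of different genes cannot be compared, but within a gene the VPA arrays lie above the PBS arrays from group 2 to group 10, with VPA replicate 1 on top for 21 of the 23 genes of groups 2 to 9.

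Group 9, active from the thoracic cord to the tail, was the last in which all measured members rose. Hoxb9 read 7.09, 7.43 and 7.11 with PBS and 9.42, 8.74 and 8.64 with VPA, a rise of 1.72 (SE 0.19, adjusted p = 0.000193). It was the only gene of groups 9 to 13 that rose by at least 2-fold. Hoxc9, which sets thoracic motor neuron identity, rose by 0.86 (SE 0.08), from a mean of 6.33 to 7.19. Hoxa9 differed by 0.53 (SE 0.07), its PBS mean of 5.97 being under the gauge. Hoxd9 rose by 0.26 (SE 0.06, adjusted p = 0.012). It did not pass when PBS replicate 1 was left out (adjusted p = 0.0502), nor when PBS replicate 3 was (adjusted p = 0.0593).

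Groups 10 to 13 are the posterior genes of the lumbar and sacral cord, limb buds and genital tract, and most of them lay near background. Hoxd10 read 6.27, 5.98 and 6.12 with PBS and 6.52, 6.45 and 6.81 with VPA, a measured difference of 0.47 (SE 0.11, adjusted p = 0.00992). Hoxa10 differed by 0.31 (SE 0.08, adjusted p = 0.0199), from a PBS mean of 5.88 to a VPA mean of 6.19. The call of Hoxa10 was lost without PBS replicate 2 (adjusted p = 0.0864), PBS replicate 3 (0.0686), VPA replicate 2 (0.0685) and likewise VPA replicate 3 (0.0613). Hoxc10 read 5.47, 5.57 and 5.69 with PBS and 5.80, 6.03 and 5.70 with VPA, which did not pass (adjusted p = 0.0587). The VPA arrays of Hoxc10 lay just above its PBS arrays, and it passed when VPA replicate 1 was left out (adjusted p = 0.0494) and when VPA replicate 3 was (adjusted p = 0.0339).

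In group 13, which patterns the most posterior body and the digits, Hoxb13 differed by 0.29 (SE 0.07, adjusted p = 0.0106) from a PBS mean of 6.00. That call was lost without PBS replicate 1 (adjusted p = 0.0534). The other posterior genes all had overlapping groups. Hoxa11, a gene of the limb zeugopod and uterus, read 4.95, 5.11 and 5.12 with PBS and 5.08, 5.18 and 5.33 with VPA. Hoxc11 read 4.49, 4.74 and 4.76 with PBS and 4.66, 4.43 and 4.74 with VPA. Hoxd11, a partner of Hoxa11 in the limb, read 6.10, 6.03 and 6.17 with PBS and 6.18, 6.17 and 6.21 with VPA, near the gauge in both groups. The changes of these 3 genes lay between -0.05 and 0.14, and none of them passed.

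Both genes of group 12 lay below the gauge. Hoxc12 read 5.53, 5.66 and 5.60 with PBS and 5.52, 5.41 and 5.73 with VPA. Hoxd12 read 5.29, 5.27 and 5.28 with PBS and 5.14, 5.27 and 5.35 with VPA. Neither order of the groups was apparent. In group 13, Hoxa13 read 5.49, 5.57 and 5.61 with PBS and 5.56, 5.65 and 5.57 with VPA. Hoxc13, expressed in hair and nails, read 5.49, 5.58 and 5.45 with PBS and 5.48, 5.86 and 5.53 with VPA. Hoxd13, which shapes the digits, read 5.94, 5.89 and 5.96 with PBS and 5.83, 6.02 and 5.85 with VPA. All 3 stayed below the gauge on every array, so a change in RNA near background may not have been detectable.

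The clusters were described side by side, and no difference between them was tested. In the Hoxb cluster 8 of 9 genes rose, with a median change of 1.29, and 6 rose by at least 2-fold. In Hoxa 8 of 10 rose (median 0.47), in Hoxc 5 of 9 (median 0.86) and in Hoxd 5 of 9 (median 0.26). The clusters do not hold the same paralogue groups, Hoxb having no gene between groups 9 and 13, so these medians are not matched for position. A filter then left out genes whose mean over all 6 arrays lay under the gauge. The medians became 0.86 in Hoxa, 1.505 in Hoxb, 1.53 in Hoxc and 0.98 in Hoxd. That order differs, but it rests on 7, 8, 4 and 5 genes. A gene with a PBS mean under the gauge can pass this filter through its VPA level, which can raise such medians. In group 4, the only group here with a measured gene in every cluster besides groups 9 and 13, the order from high to low was Hoxb4, Hoxd4, Hoxc4 and Hoxa4. In group 9 it was Hoxb9, Hoxc9, Hoxa9 and Hoxd9. Hoxd4, Hoxc4 and Hoxa9 had PBS means below the gauge, so these orders are of measured differences whose true sizes are undefined for those genes. In group 4, the intervals of the middle genes, Hoxd4 (0.89 to 1.79) and Hoxc4 (0.88 to 1.497), overlapped. In group 9, the interval of Hoxb9 (1.30 to 2.15) lay above those of Hoxc9 (0.68 to 1.04), Hoxa9 (0.37 to 0.68) and Hoxd9 (0.12 to 0.40).

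Within the VPA group the Hox genes that rose were highest on VPA replicate 1. That array was the highest VPA array for 21 of the 26 genes, and for 36.2% of all genes. Over the 26 genes it exceeded the mean of VPA replicates 2 and 3 by a median of 0.38, with a range of -0.19 to 0.92. Over all genes the median excess was -0.02, and 95% of them lay between -0.36 and 0.41. The 26 genes were called from values that include VPA replicate 1, so their excess is not independent of the call. Over all 37 Hox genes the median excess was 0.13, with VPA replicate 1 highest for 21 and lowest for 7. The genes with the largest excess were Hoxa5 (0.92), Hoxd4 (0.83), Hoxc6 (0.73) and Hoxb9 (0.73), while Hoxc8 (0.08) rose nearly equally on the 3 arrays. Hoxa10 and Hoxd10 had excesses of -0.19 and -0.10. Among the PBS arrays, the median excess of an array over the other two for the same 26 genes was between -0.08 and 0.04. Without VPA replicate 1 the median change of the 37 genes was 0.66.

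**Figure D3:**
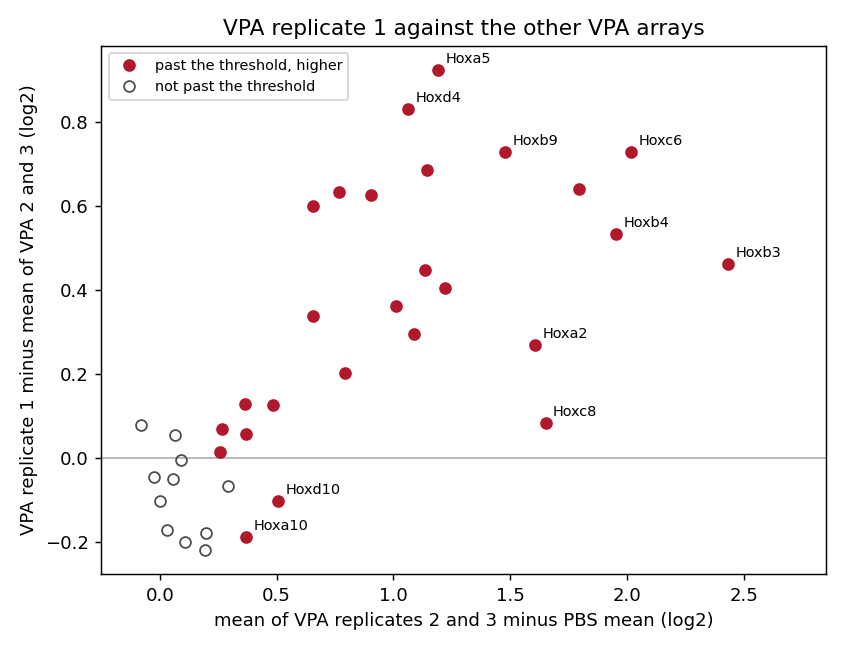
For each Hox gene, the excess of VPA replicate 1 over the mean of VPA replicates 2 and 3 (vertical, log2) against the change measured with replicates 2 and 3 alone (horizontal, log2); filled points rose with all 6 arrays. Most genes with larger changes have a positive excess, up to 0.92 for Hoxa5, while Hoxc8 is near 0 at 0.08, Hoxa10 and Hoxd10 are negative, and genes that did not pass lie between -0.22 and 0.08.

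The clusters also hold microRNA genes, which repress messenger RNAs that pair with the seed, bases 2 to 8 of the mature microRNA. Their mature sequences are shown because members of the same family sit at like places in different clusters and share a seed (RefSeq, GRCm38.p6, 5′ to 3′, seed in capitals).
miR-10a-5p: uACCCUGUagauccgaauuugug
miR-10b-5p: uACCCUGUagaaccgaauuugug
miR-196a-5p: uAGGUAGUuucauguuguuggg
miR-196b-5p: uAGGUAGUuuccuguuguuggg
miR-615-3p: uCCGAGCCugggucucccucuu
The miR-10 pair shares the seed ACCCUGU. Mir10a lies between Hoxb5 and Hoxb4 and within the gene model of Hoxb3, and Mir10b within the gene models of Hoxd3 and Hoxd4. The miR-196 family shares the seed AGGUAGU, and miR-196a-5p comes from both Mir196a-1, between Hoxb13 and Hoxb9, and Mir196a-2, between Hoxc10 and Hoxc9. Mir196b lies between Hoxa9 and Hoxa10, and Mir615 within the Hoxc5 gene.

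Whether the probe sets of these genes detect the precursor or the mature form was not tested. Mir10a read 3.23, 3.46 and 3.40 with PBS and 4.46, 3.84 and 3.76 with VPA, a difference of 0.66 (SE 0.16, adjusted p = 0.016). Mir10b read 3.53, 3.43 and 3.67 with PBS and 4.61, 3.83 and 4.03 with VPA, a difference of 0.61 (SE 0.17, adjusted p = 0.0258). Both lay far below the gauge, and VPA replicate 1 was the highest array for both, as it was for Hoxb4 and Hoxd4. The call of Mir10a was lost without PBS replicate 1 (adjusted p = 0.0715), and that of Mir10b without PBS replicate 1 (0.084) or PBS replicate 2 (0.0896). Mir196a-1 and Mir196b differed by 0.31 and 0.22 and passed, while Mir196a-2 differed by 0.16 and did not, all 3 below the gauge in both groups. The call of Mir196b was lost when PBS replicate 1 or 3 (adjusted p = 0.106 and 0.092) or VPA replicate 2 or 3 (0.0827 and 0.0686) was left out. Mir615 differed by 0.23 (adjusted p = 0.052), and passed when VPA replicate 1 was left out (0.0147).

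Among all 17 measured genes beside or within the clusters, microRNAs included, 5 rose and 0 fell, and 1 was lower at an unadjusted p under 0.05. Over all genes 13.6% rose and 29.2% passed in either direction. Skap2, an adaptor gene next to the Hoxa cluster, read 6.99, 6.90 and 6.88 with PBS and 7.72, 7.71 and 7.70 with VPA, a rise of 0.79 (SE 0.06, adjusted p = 2.08e-05). Its VPA arrays were nearly equal, with no excess on VPA replicate 1. Evx1 and Evx2, homeobox genes at the posterior ends of the Hoxa and Hoxd clusters, differed by 0.12 and 0.04 and did not pass, though Evx1 did without VPA replicate 3 (adjusted p = 0.0473). Neither did Hottip, a non-coding RNA of the posterior end of Hoxa, at 0.16.

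Sequence upstream of the start of transcription was given by RefSeq for 21 of the 37 genes, 2 of them with 2 starts. This made 23 windows of 250 bases. In the Hoxb and Hoxc clusters only Hoxb1, Hoxb4 and Hoxc4 had a window, so Hoxb3, Hoxc6 and Hoxb2, for example, were not searched. A hexamer, AGGTCA, that retinoic acid receptors and other nuclear receptors bind in repeats, was searched on both strands. It was chosen with the changes of the genes known. It occurred in 6 of the 15 windows of genes that rose and in 0 of the 8 windows of genes that did not pass, against 14% of all 32851 windows. The 6 windows belonged to Hoxb4, Hoxc4, Hoxd3, Hoxd4, Hoxd8 and Hoxd10. A motif bound by Hox proteins with Pbx, TGATNNAT, occurred in 3 of the 23 windows, those of Hoxa2, Hoxb1 and a start of Hoxd11, against 7.68% of all windows, and no window held both motifs. A match shows only that the letters are present, and the counts were not tested.

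Most windows of genes that rose, such as those of Hoxa2, Hoxa3 and Hoxa5, held no AGGTCA, so the windows shown do not stand for all. Hoxb1 shares its cluster with Hoxb4, but not with Hoxd4 and Hoxd8. Windows of 3 genes that rose and held a match are shown with that of Hoxb1, which did not pass and held none (RefSeq, GRCm38.p6, 5′ to 3′, AGGTCA or its reverse complement in capitals).
Hoxb4, chr11:96318017-96318266, + strand: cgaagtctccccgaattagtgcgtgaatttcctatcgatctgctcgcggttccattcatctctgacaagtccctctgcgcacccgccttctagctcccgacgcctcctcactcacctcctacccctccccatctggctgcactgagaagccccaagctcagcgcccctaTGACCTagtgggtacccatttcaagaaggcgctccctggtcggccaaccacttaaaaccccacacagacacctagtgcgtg
Hoxd4, chr2:74721728-74721977, + strand: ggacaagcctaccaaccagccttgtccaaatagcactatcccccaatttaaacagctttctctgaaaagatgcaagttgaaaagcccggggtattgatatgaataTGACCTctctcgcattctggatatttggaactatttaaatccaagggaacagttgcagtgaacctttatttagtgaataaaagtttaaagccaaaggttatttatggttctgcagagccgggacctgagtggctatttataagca
Hoxd8, chr2:74704365-74704614, + strand: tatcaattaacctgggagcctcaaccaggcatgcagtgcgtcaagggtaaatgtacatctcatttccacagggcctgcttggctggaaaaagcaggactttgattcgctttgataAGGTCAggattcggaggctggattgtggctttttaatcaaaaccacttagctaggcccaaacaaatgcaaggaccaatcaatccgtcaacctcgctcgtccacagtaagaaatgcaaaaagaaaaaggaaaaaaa
Hoxb1, chr11:96365508-96365757, + strand: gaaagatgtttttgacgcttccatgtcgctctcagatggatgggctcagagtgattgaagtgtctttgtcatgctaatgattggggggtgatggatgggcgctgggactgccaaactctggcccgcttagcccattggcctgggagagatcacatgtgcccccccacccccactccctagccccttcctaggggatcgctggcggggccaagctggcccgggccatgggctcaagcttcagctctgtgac
The match begins 81 bases before the start in Hoxb4, 145 in Hoxd4 and 135 in Hoxd8. CpG dinucleotides, frequent at promoters held by Polycomb proteins, numbered 14, 3 and 6 in these windows and 7 in that of Hoxb1. Their median was 12 in the windows of genes that rose, 16.5 in those of genes that did not pass and 6 over all windows.

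Genes known to act with or on the Hox genes were taken from lists that were set with earlier results of these data known. Of 17 retinoic acid pathway genes, 11 rose and 0 fell (0 lower at an unadjusted p under 0.05), with a median change of 0.70. Crabp2, which carries retinoic acid to its nuclear receptors, read 7.58, 7.83 and 7.83 with PBS and 10.43, 10.32 and 10.31 with VPA. Crabp1, its cytoplasmic relative, rose by 1.74 (SE 0.07), and Stra6, a membrane transporter of retinol, by 1.32 (SE 0.10). Of 8 TALE homeodomain genes, whose products bind DNA together with Hox proteins, 3 rose and 1 fell (median -0.04). For both lists, the shares over all genes were 13.6% higher, 15.7% lower and 29.2% in either direction. Meis1 rose by 0.90 (SE 0.06), Meis2 by 0.44 (SE 0.06) and Pknox1 by 0.42 (SE 0.09). Pbx2 fell by 0.23 (SE 0.06), a call lost when PBS replicate 3 (adjusted p = 0.0625) or VPA replicate 2 (0.0514) was left out. VPA replicate 1 was the highest VPA array for 7 of the 8.

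Of 6 upstream factors, 1 rose and 0 fell, a count near the 13.6% of all genes that rose. The gene that rose was Gbx2, which sets the hindbrain side of the midbrain-hindbrain boundary, with a change of 0.40 (SE 0.06). The caudal genes Cdx1, Cdx2 and Cdx4, which activate middle Hox genes in the embryo, differed by 0.01, -0.12 and -0.05 and did not pass, and Cdx2 and Cdx4 lay below the gauge. Cdx2 passed, as lower, when VPA replicate 2 was left out (adjusted p = 0.0398). Of 19 Polycomb and trithorax genes, 0 rose and 4 fell, and 1 was higher at an unadjusted p under 0.05 (median -0.0066). Over all genes 15.7% fell and 29.2% passed in either direction, so the list's count is near that background. Ezh1, which encodes a histone methyltransferase of Polycomb complexes, fell by 0.47 (SE 0.06), from 9.14, 9.19 and 9.21 to 8.73, 8.75 and 8.65. Of the other main Polycomb complex, Phc1 fell by 0.28 and Ring1 fell by 0.23. Kmt2a, a trithorax methyltransferase that maintains Hox expression, fell by 0.22 (SE 0.07, adjusted p = 0.0453). The call of Phc1 was lost without PBS replicates 1, 2 or 3 (adjusted p = 0.114, 0.0764 and 0.106) or VPA replicates 2 or 3 (0.108 in each case), and that of Ring1 without the same arrays (0.127, 0.0869, 0.143, 0.138 and 0.131). Kmt2a likewise did not pass without any of these arrays (0.165, 0.112, 0.074, 0.104 and 0.132). With quantile normalization none of the 3 passed (adjusted p = 0.0559 for Phc1, 0.0507 for Ring1 and 0.0961 for Kmt2a).

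Genes of the anterior brain, where Hox genes are normally silent, mostly moved the other way. Of 17 measured, 12 fell and 2 rose, with a median change of -0.49. Over all genes 15.7% fell and 13.6% rose. Those of the list that rose were Pax2 (0.50) and Lmx1b (0.41). Pax2 did not pass when PBS replicate 1, 2 or 3 was left out (adjusted p = 0.0729, 0.0601 and 0.055). Dmbx1, a midbrain homeobox gene, fell by 1.84 (SE 0.08). Otx1, which patterns forebrain and midbrain, fell by 1.60 (SE 0.12), and Fezf2, a forebrain regulator, fell by 1.25 (SE 0.09). The list differed by a median of -0.10 on VPA replicate 1 from the other VPA arrays.

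**Figure D4:**
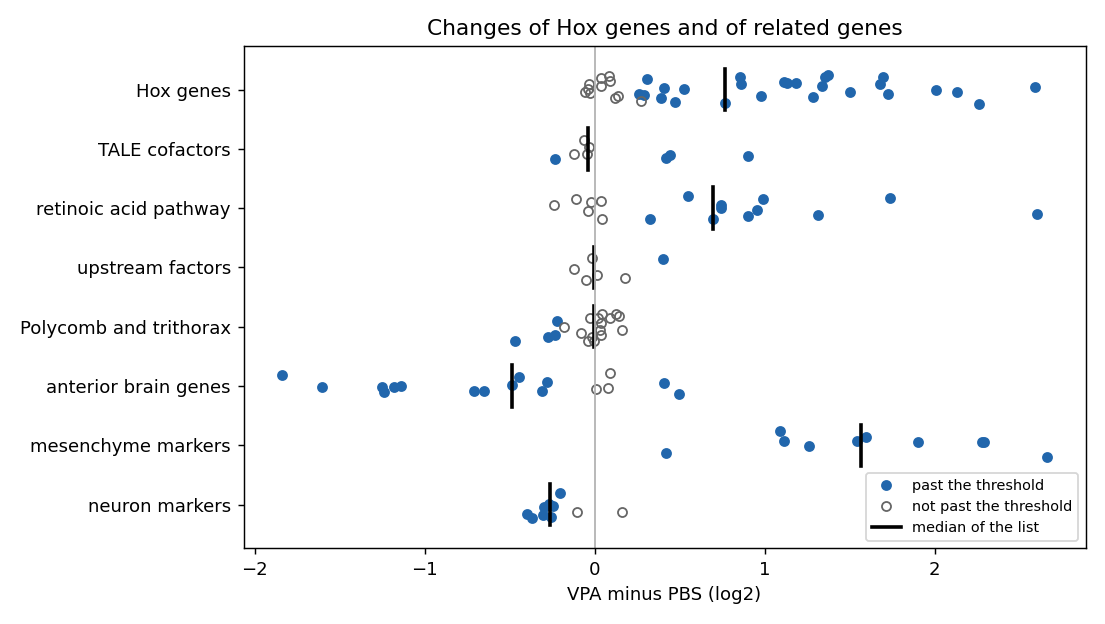
Change of each gene, VPA minus PBS (horizontal, log2), for the Hox genes and for lists of related and marker genes; filled points passed the threshold and bars mark each list's median. The Hox median is 0.77, the retinoic acid median 0.70, the anterior brain median -0.49 and the mesenchyme median 1.57.

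Markers of cell types that could carry Hox RNA were measured beside these. In bulk cultures, more cells of a type and more RNA per cell cannot be told apart. Beside the counts below, 13.6% of all genes rose, 15.7% fell and 29.2% passed in either direction. All 10 mesenchyme and fibroblast markers rose (median 1.57), with their mean level between 8.01 and 8.23 on the PBS arrays and between 9.71 and 9.78 on the VPA arrays. Of 7 neural crest and Schwann cell markers 6 rose and Tfap2b fell by 1.39, with mean levels of 7.76 to 7.87 and 8.46 to 8.64. Of 8 paraxial mesoderm markers Meox1 (0.19), Meox2 (1.18) and Tcf15 (0.24) rose and 0 fell (median 0.12), and 4 had PBS means below the gauge. Of 7 spinal and hindbrain neuron markers Phox2a, Tlx3, Lbx1, Lhx4 and Slc6a5 rose by 0.30 to 0.74 and Isl1 fell by 0.31 (median of the 7 genes 0.37), while of 10 general neuron markers 8 fell and 0 rose (median -0.26), with 1 higher at an unadjusted p under 0.05.

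Of 8 neural progenitor markers Nes (0.38) and Pax6 (0.54) rose and Sox1 fell by 0.30, where 29.2% of all genes passed in either direction. Endothelial markers rose for 5 of 6, and of 6 endoderm markers 0 rose and Ttr, which the choroid plexus also expresses, fell by 1.90, with 1 higher at an unadjusted p under 0.05. Of 4 blood markers 0 passed, with 0 higher and 1 lower at an unadjusted p under 0.05. Of 5 pluripotent cell markers 0 passed, with 0 at an unadjusted p under 0.05 in either direction, and all 5 lay below the gauge. All 10 neuron markers lay above the gauge in both groups, which fits the labelled neural cultures. The mesenchyme markers had no excess on VPA replicate 1 (median -0.02). The spinal and hindbrain neuron markers had one of 0.17 and the neural crest markers one of 0.13. For the Hox genes the median excess was 0.38 over those that rose and 0.13 over all 37. The former is over genes picked by their rise, so it is not matched to the whole marker lists. Over the lists of related genes the median excess ran from -0.10 for the anterior brain genes to 0.18 for the retinoic acid pathway genes. Whether an excess on that array tells which cells carry Hox RNA was not tested. Some of these marker calls were lost when 1 array was left out. Meox1 did not pass without PBS replicates 1, 2 or 3 or VPA replicates 2 or 3 (adjusted p = 0.0556 to 0.117), nor did Tcf15 (0.0613 to 0.1005) or Sox1 (0.0629 to 0.0813). Isl1 did not pass without PBS replicates 1, 2 or 3 (0.0559, 0.0964 and 0.0584), Lbx1 without PBS replicates 1 or 3 (0.0575 and 0.0625), Tlx3 without PBS replicate 1 (0.0553) and Nes without PBS replicate 2 (0.0547). The part of these cell types in the rise of the Hox genes was not tested.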

How the data were processed

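RNA of 6 cultures, 3 with VPA and 3 with PBS, was measured on Affymetrix gene arrays after conversion to biotin-labelled sense-strand DNA, per the labels' protocols. The authors deposited a log2 signal for each probe set and array, from 2.5 to 13.89, base 2 being inferred from that range. Partek 6.5 and genome build mm9 are named, with no role, in the submitters' processing notes. Normalization is otherwise not given in the sources used here. Array medians were nearly equal, so changes are relative to other genes.

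Of 35556 probe sets, 21789 had exactly 1 symbol, 1621 several and 12146 none. Symbols were updated through Entrez IDs, of which 21698 matched RefSeq. The brightest probe set over the 6 arrays stood for each of 19938 genes. VPA was compared with PBS with lmFit and eBayes of limma 3.58.1 (R 4.3.3) without covariates, adjusted over all genes. The fit was tested on simulated data. Unlike the data here, the simulation had few changed genes and no array that stood apart, so it checks only the working of the fit. An exact test of 3 against 3 arrays cannot give a two-sided p below 0.1. Members and lists were chosen with earlier results of these data known. Every Hox gene was named. Array values were given for the 4 largest changes of each cluster and for genes that did not pass. Of the related lists the 3 largest changes past the threshold were named, and Evx1, Evx2, Hottip, the remaining microRNAs, the Cdx genes, Pbx2, Kmt2a, Pax2, Lmx1b and the single cell type markers were chosen after their values were seen, as was running the alternatives for them. Alternatives were quantile normalization, median centring, filters on dim genes, the mean of probe sets, other variance models, array weights, a replicate block, other thresholds and leaving out each array. The number of arrays limits the precision.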

Additional observations from a re-analysis of the deposited data

Results flagged for a closer look

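One probe set is assigned to Hoxb8 and Hoxb7 together and was used for no gene. It read 6.71, 6.86 and 6.95 with PBS and 9.70, 9.56 and 9.62 with VPA, a difference of 2.79, which exceeds the change of every gene with a probe set of its own in the 4 clusters. It was singled out because its signal lay outside the comparison by gene and above the control arrays. The probe set of Hoxb7 alone changed by 1.13. Which of the 2 genes gives the signal was not tested.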

How the results depend on the processing

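The count of Hox genes higher with VPA was 23 to 28 under all alternatives but 3, and no Hox gene fell under any. The exceptions were 5 with genes under the 50th percentile of mean level left out, a filter that kept 5 Hox genes, 19 without moderation of the variances and 19 with a fold of at least 1.5. Leaving out 1 array gave 24 to 27. No call was reversed. In the alternatives in which they were tested, 27 of 37 Hox genes kept their call and 10 did not. All 17 alternatives run for single genes could be run for 5 Hox genes, 16 for 19 and 14 for 13, since filters left the others out. Without moderation of the variances 7 calls were lost, those of Hoxa4, Hoxa6, Hoxa10, Hoxb13, Hoxd3, Hoxd4 and Hoxd10.

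Filters on dim genes change which members enter a median, and they act on a mean that includes the VPA arrays. A gene that was dim with PBS can be kept through its rise, while dim genes that did not rise drop out. The medians and counts under these filters are therefore not independent of the change, and larger medians are partly set by the filter. Filtering at the 30th percentile or at the gauge gave medians of 1.21 over the Hox genes, 0.86 in Hoxa, 1.505 in Hoxb, 1.53 in Hoxc, 0.98 in Hoxd and 0.53 in groups 9 to 13. At the 50th percentile they were 1.72 over all, 1.696 in Hoxa, 1.87 in Hoxb, 2.01 in groups 1 to 4 and 1.72 in groups 9 to 13, with no Hoxc or Hoxd gene left. Array weights moved the median of groups 9 to 13 to 0.26. Leaving out 1 array gave medians of 0.23 to 0.30 in Hoxd.

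Over all genes, 1520 rose with the filter at the 50th percentile, 1631 without moderation and 4342 with array weights. At an adjusted p under 0.01, 1579 rose and 1791 fell, and with a fold of at least 1.5, 695 and 432. Leaving out 1 array gave 1778 to 3949 higher and 2058 to 4224 lower, the lowest being without PBS replicate 2. Genes of the related lists past the threshold numbered 39, and 30 to 46 without 1 array.

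The replicate numbers of the titles did not pair the arrays. Deviations of same-numbered arrays correlated at -0.02, -0.0085 and 0.02, and not every array correlated best with its own number. With the replicate number as a block, 26 Hox genes rose and 0 fell, and over all genes 2592 rose and 2818 fell. The block changed the call of no single Hox gene, but with it Ring1 (adjusted p = 0.0519) and Meox1 (0.0618) did not pass in limma.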

Other observations

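A transcript that runs antisense in the Hoxa cluster moved with its neighbours. Hoxaas2, looked at after its values were seen, read 7.74, 8.001 and 7.88 with PBS and 9.65, 9.05 and 9.15 with VPA. The rise was 1.41 (SE 0.14, adjusted p = 0.000134 in limma), and 1.22 without VPA replicate 1, which was again the highest array. Hoxd3os1, the opposite-strand transcript of the Hoxd cluster, read 6.06, 6.29 and 6.25 with PBS and 6.37, 6.26 and 6.40 with VPA. Its change of 0.14 did not pass (adjusted p = 0.184 in limma), but passed with the mean of its probe sets (change 0.25, adjusted p = 0.0432), whereas Hoxd3 rose by 0.98.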
